A study of Mus musculus with 8 samples.

Results

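The transcription factor p53 and a set of its target genes known for stopping cell division or limiting growth were followed in the spleens of mice without Nix, the mitochondrial protein encoded by Bnip3l. The set was defined by gene symbol: Trp53, Mdm2, Cdkn1a, Gadd45a, Zmat3, Ccng1, Perp, Trp53inp1, Sesn1 and Sesn2. All probe sets annotated to one of these 10 symbols and to no other gene were taken. This gave 19 of the 45101 probe sets of the array, from 9 genes. Probe sets annotated to several genes were left out of the member set. No probe set was annotated to Trp53 alone in the table used here, so p53's own transcript was not analysed here. Whole spleens of 8-week-old Nix-null mice (Nix-/-, called Nix_KO) were compared with those of wild-type mice (WT) of the same age, with 4 animals per genotype, 1 Affymetrix array per spleen and no pooling. The labels name no treatment, and the sources used here do not give strain, sex or the deleted stretch of the gene. The Nix_KO animals carry the title numbers 10, 2, 3 and 6 and the WT animals 3, 4, 5 and 6, which name their arrays below.

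p53 is held at a low level by MDM2, a ubiquitin ligase that p53 itself induces, and is stabilised when DNA is damaged or ribosome assembly fails. It then raises genes that halt the cell cycle, dampen growth signals or start cell death. In red cell precursors, p53 activation is known to block maturation, and the adult mouse spleen is a site where such precursors divide when red cell demand rises.

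Gadd45a was the member that changed most: it was 3.97-fold higher in Nix_KO spleens, and every Nix_KO array lay above every WT array. Zmat3 was 1.88-fold lower. The inhibitor of division Cdkn1a had a lower mean in Nix_KO spleens without passing the test, and no call was made for Mdm2, Ccng1, Trp53inp1, Sesn1 or Sesn2. Of the 15 member probe sets that could be tested, 1 rose, 1 fell and 13 did not pass (limma adjusted p under 0.05 over all 22347 tested probe sets). That is 13.3% of them called, where 30% of all tested probe sets were called, 12.5% higher and 17.6% lower. Groups without overlap were seen in 1 of the 15, against 34.6% of all tested probe sets. The median log2 change was -0.02 over the 15, with -0.12 over all tested probe sets. The other 4 member probe sets read below a log2 intensity of 5 in all 8 arrays and were not tested.

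**Figure D1:**
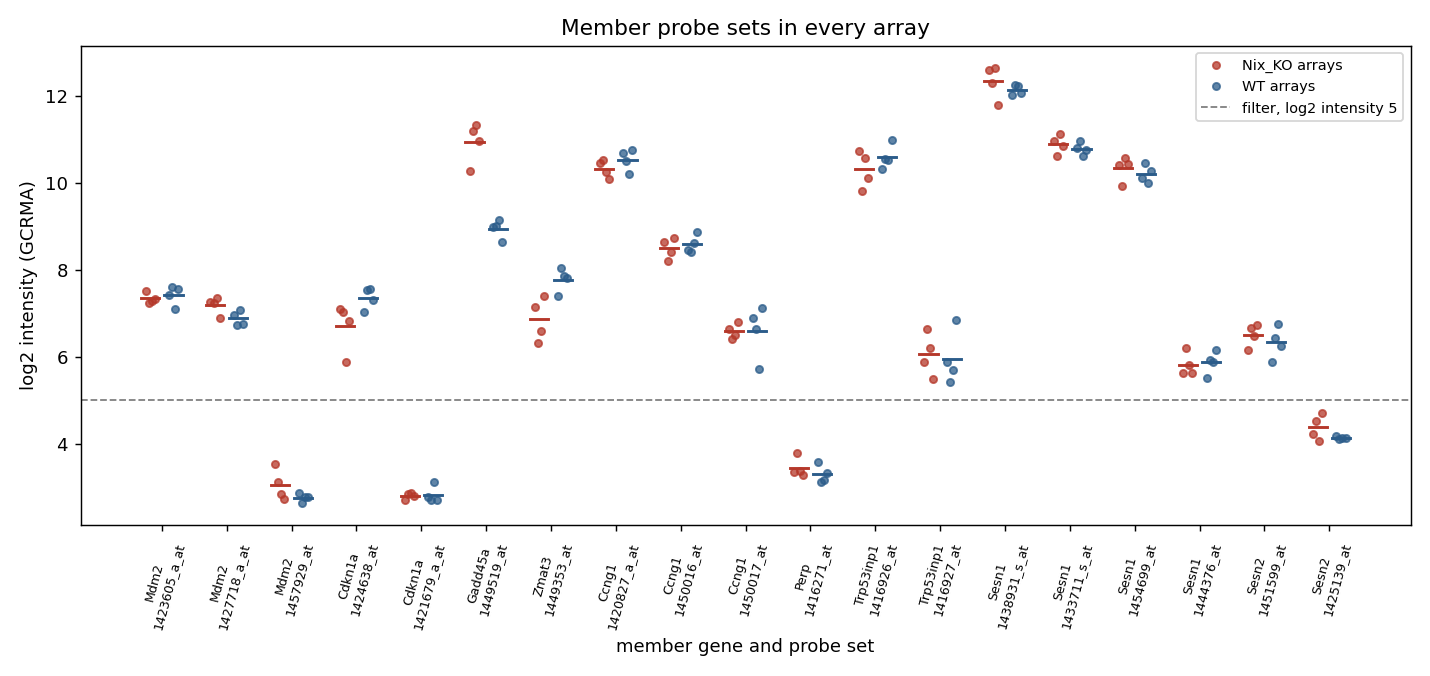
Log2 intensity (vertical axis) of the 19 member probe sets (horizontal axis) in the 4 Nix_KO arrays (red, left of each pair) and the 4 WT arrays (blue, right), with bars at the group means and the dashed line at 5. The Gadd45a arrays separate by genotype (Nix_KO 10.29 to 11.34, WT 8.64 to 9.16), those of the other tested members overlap, and 4 probe sets lie below the line.

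p53 binds DNA at pairs of the p53 half-site, a consensus of 10 letters searched on both strands, which are equivalent because it is its own reverse complement. RefSeq promoter windows (build GRCm38.p6, 250 bases before to 50 after a gene's start) were found for 6 of the 9 measured members. A half-site was present in a window of 5 of these 6, namely Gadd45a, Cdkn1a, Mdm2, Ccng1 and Sesn1, but in none for Sesn2. Over all 32851 windows the share with a half-site was 8.36%, and 9.55% of 27025 genes had at least 1 such window. A match describes letters and shows no binding, and the members were picked as p53 targets. The whole window of Gadd45a, the member that rose, lies at chr6:67037358-67037657 on the minus strand, and its half-site (capitals) starts at position -40 from the gene's start:
Gadd45a: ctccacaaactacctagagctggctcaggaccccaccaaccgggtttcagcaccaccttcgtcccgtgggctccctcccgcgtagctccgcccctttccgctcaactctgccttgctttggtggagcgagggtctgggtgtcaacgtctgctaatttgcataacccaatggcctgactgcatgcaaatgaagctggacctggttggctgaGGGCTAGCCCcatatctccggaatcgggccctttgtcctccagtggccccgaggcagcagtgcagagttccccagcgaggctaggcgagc

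Stretches of 60 bases around the half-sites of the 4 others are shown for comparison, since each of these genes has its own match to the same consensus and was not called in these spleens. They lie at chr17:29090892-29090951 (plus strand, half-sites starting at -73 and -51) for Cdkn1a and at chr10:117710910-117710969 (minus strand, -186) for Mdm2. Those of Ccng1 and Sesn1 lie at chr11:40755437-40755496 (minus strand, -185) and chr10:41887241-41887300 (plus strand, -173). For Cdkn1a and Sesn1, which have 2 windows each, the window with a match is shown, and positions are counted from the gene start within it. Capitals mark each match to a single half-site, so the 2 in Cdkn1a are not shown to form a pair:
Cdkn1a: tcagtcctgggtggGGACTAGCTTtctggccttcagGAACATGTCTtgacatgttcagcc
Mdm2: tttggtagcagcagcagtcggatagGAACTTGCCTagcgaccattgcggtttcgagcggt
Ccng1: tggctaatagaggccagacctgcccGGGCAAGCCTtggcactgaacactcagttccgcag
Sesn1: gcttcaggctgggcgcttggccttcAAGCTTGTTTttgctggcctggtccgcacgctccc

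Some facts of the whole series bear on these values. The 3 probe sets of Bnip3l, each shared with its pseudogene, gave signal in both genotypes, with log2 differences from -0.50 to 0.58 and limma adjusted p from 0.117 to 0.164, so they did not check the genotype labels. The 6 markers of spleen identity, among them Tlx1 and Nkx2-5, read between 5.64 (Nkx2-5) and 13.79 (Cd79a) in the 8 arrays. In Nix_KO spleens 3 of the 6 were lower and 3 did not pass, with a median log2 change of -0.91. Genes of the exocrine pancreas stood apart in 3 arrays: their mean log2 intensity was 9.61 to 12.70 in Nix_KO 3, WT 3 and WT 5, against 5.03 to 7.12 in the other 5. The counts of called members and of called genes around p53 are therefore also given without these 3 arrays. That fit compares only Nix_KO 10, Nix_KO 2 and Nix_KO 6 with WT 4 and WT 6. With fewer arrays, 15.3% of all tested genes were called, against 38.3% in the main fit. The part of the pancreatic signal in calls lost there was not tested. All 14 tested erythroid markers and all 17 tested cell division genes were higher in Nix_KO spleens, and all 11 tested B cell markers were lower. Of the other cell marker lists, 12 of 12 neutrophil genes were higher, while 8 of 10 T cell, 4 of 12 macrophage and 11 of 12 stromal and endothelial genes were lower, and 0 of 11 pancreatic genes passed in either direction.

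Gadd45a encodes a small acidic nuclear protein that binds PCNA and the p21 inhibitor and activates stress kinase signalling. Its single probe set, 1449519_at, read a log2 intensity of 10.29 in Nix_KO 10, 11.19 in Nix_KO 2, 11.34 in Nix_KO 3 and 10.96 in Nix_KO 6, against 9.0, 9.01, 9.16 and 8.64 in WT 3, 4, 5 and 6. The lowest Nix_KO array, Nix_KO 10, was still above the highest WT array, WT 5, so the groups did not overlap. The means were 10.94 ± 0.47 in Nix_KO and 8.95 ± 0.22 in WT spleens (SD, n = 4 each), a log2 fold change of 1.99 ± 0.24 SE (limma adjusted p = 0.00217). At the level of 1 probe set per gene, 98.3% of the 11027 tested genes had a lower change. The log2 change stayed between 1.86 and 2.21 whichever single array was left out, with limma adjusted p from 0.00134 to 0.0105, and was 1.99 without the 3 arrays with pancreatic signal (limma adjusted p = 0.0483).

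The difference between the log2 change of Gadd45a and that of each of the 7 other tested members, taken within the same arrays, ran from 1.80 against Sesn1 to 2.90 against Zmat3. Gadd45a was singled out for its change and enters all 7 differences. An exact permutation test of them was run, but that choice shaped its outcome, so the differences are given as a description only.

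Marker lists also differed between the genotypes in which Gadd45a differed. The erythroid marker list had a mean log2 intensity of 12.66 to 13.13 in Nix_KO arrays and 9.78 to 11.71 in WT arrays, with all 14 tested markers higher and a median log2 change of 2.13. The cell division list read 10.99 to 11.49 in Nix_KO arrays and 9.23 to 10.21 in WT arrays, with a median log2 change of 1.70. The neutrophil list read 9.94 to 10.83 in Nix_KO arrays and 7.10 to 9.56 in WT arrays, with a median log2 change of 1.94. The B cell, T cell, macrophage and stromal and endothelial lists had negative median changes. In whole spleen, more cells of a type and more RNA per cell cannot be told apart, and the part of these lists in the result was not tested. The genes most like Gadd45a, by the root mean square difference of log2 deviations from the own mean over the 8 arrays, were Fancd2 (0.20), Atg4a (0.20) and Dnajb2 (0.21), whose own log2 changes were 1.97, 2.02 and 1.88.

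**Figure D2:**
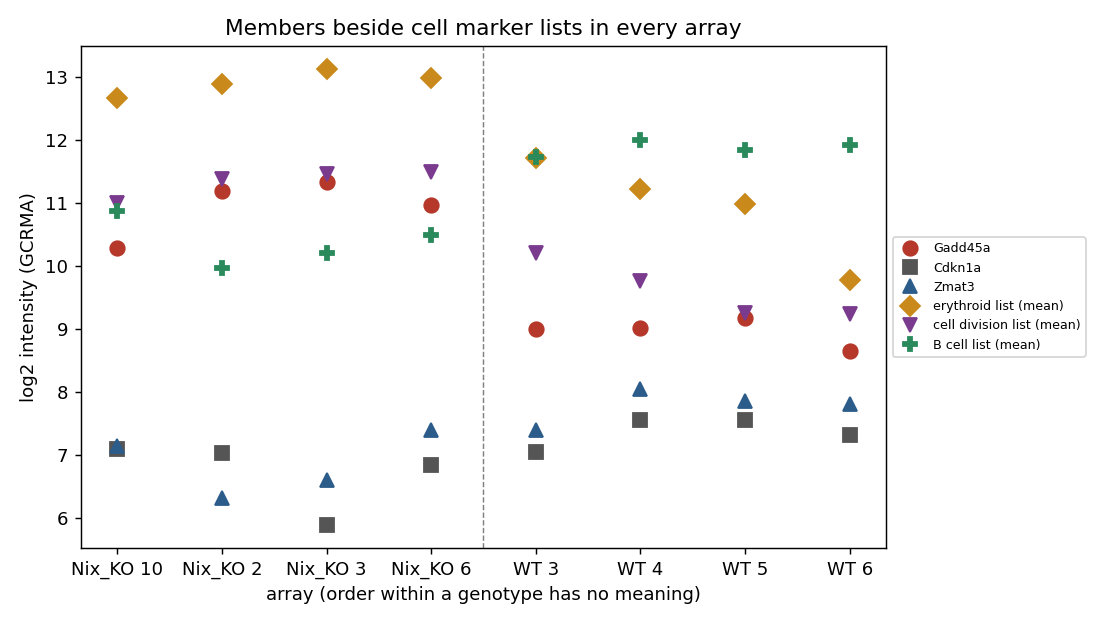
Log2 intensity (vertical axis) of Gadd45a, Cdkn1a and Zmat3 and the mean log2 intensity of 3 marker lists in each array (horizontal axis, Nix_KO arrays on the left, WT arrays on the right). Gadd45a and the erythroid and cell division lists are higher in all Nix_KO arrays than in any WT array, while the B cell list is lower (9.97 to 10.87 in Nix_KO arrays, at least 11.73 in WT arrays).

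Cdkn1a encodes p21, the inhibitor of cyclin-dependent kinases through which p53 stops the cell cycle. Its brighter probe set, 1424638_at, read 7.10 in Nix_KO 10, 7.03 in Nix_KO 2, 5.88 in Nix_KO 3 and 6.83 in Nix_KO 6, against 7.04, 7.54, 7.56 and 7.31 in WT 3, 4, 5 and 6. The groups overlapped only through Nix_KO 10 and WT 3, and Nix_KO 3 was the lowest of all 8. The log2 fold change was -0.65 ± 0.27 SE (limma adjusted p = 0.0958), with a 95% interval from -1.26 to -0.04 before adjustment. It was -0.38 ± 0.18 SE without Nix_KO 3 (limma adjusted p = 0.148). With 1 probe set per gene its main limma adjusted p was 0.0726. It passed there without Nix_KO 10 (log2 -0.78, limma adjusted p = 0.0471) and with array weights (log2 -0.65, limma adjusted p = 0.0476), and no other alternative brought it past the threshold (highest limma adjusted p = 0.165). The other probe set, 1421679_a_at, read 2.71 to 2.86 in Nix_KO and 2.70 to 3.11 in WT arrays, below the level at which probe sets were tested. Genes whose arrays lay closest to those of Cdkn1a were Rps25, Eno3 and Tuba1a, with root mean square differences of 0.12, 0.15 and 0.15 over the 8 arrays.

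Zmat3, a zinc finger protein that binds AU-rich RNA and is induced by p53, was lower in Nix_KO spleens. Probe set 1449353_at read 7.14 in Nix_KO 10, 6.32 in Nix_KO 2, 6.60 in Nix_KO 3 and 7.39 in Nix_KO 6, against 7.39, 8.05, 7.85 and 7.81 in WT 3, 4, 5 and 6. The groups met at Nix_KO 6 and WT 3, while the 3 other arrays of each genotype were apart. The log2 fold change was -0.91 ± 0.25 SE (limma adjusted p = 0.0243). The call was lost without Nix_KO 3, WT 4, WT 5 or WT 6, where limma adjusted p was 0.0605, 0.0741, 0.0628 and 0.0629, though the change stayed between -1.09 and -0.73 whichever single array was left out. Without the 3 arrays with pancreatic signal it was -0.98 (limma adjusted p = 0.135), which left Gadd45a as the 1 called member, where 3.09% of all tested probe sets were called. Several marker lists fell in Nix_KO spleens over all 8 arrays. The median log2 change was -1.51 for B cells (11 of 11 tested markers lower) and -0.96 for T cells (8 of 10). It was -1.09 for stroma and endothelium (11 of 12) and -0.47 for macrophages (4 of 12). The erythroid, cell division and neutrophil lists rose. The part of any list in the value of Zmat3 was not tested.

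**Figure D3:**
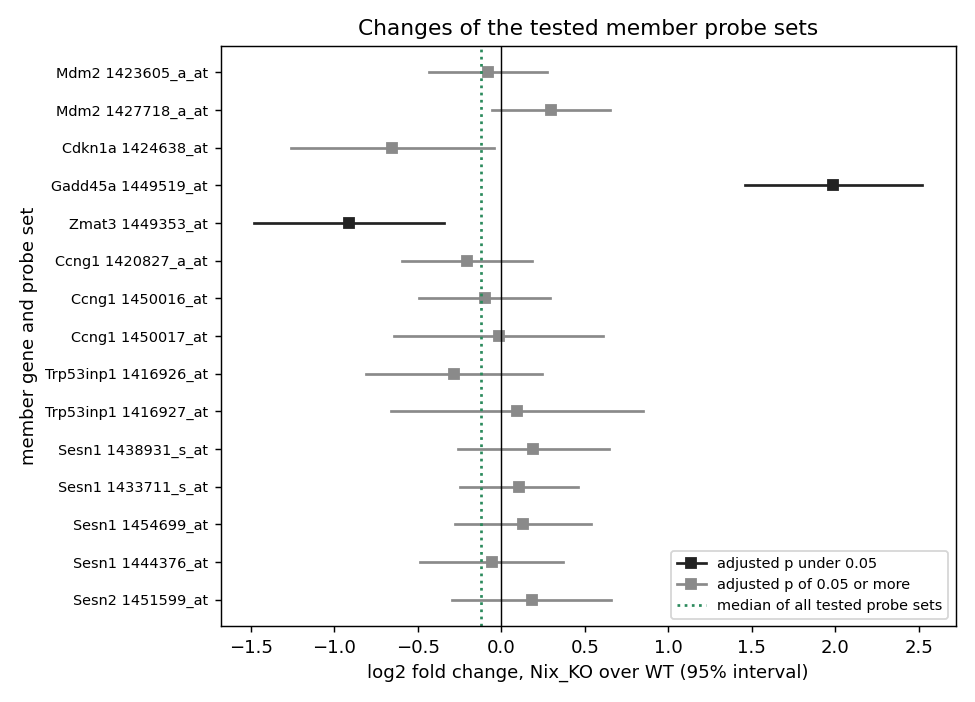
Log2 fold change, Nix_KO over WT (horizontal axis), of the 15 tested member probe sets (vertical axis), with unadjusted 95% intervals, dark where the adjusted p was under 0.05, and a dotted line at the median of all tested probe sets (-0.12). Gadd45a (1.99) and Zmat3 (-0.91) are dark, and the 13 others lie between -0.65 and 0.30.

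Mdm2 and Ccng1 belong to the loop that feeds back on p53: MDM2 marks it for degradation, and cyclin G1 brings a phosphatase to MDM2. The brighter Mdm2 probe set, 1423605_a_at, read 7.52, 7.25, 7.29 and 7.34 in Nix_KO 10, 2, 3 and 6, against 7.43, 7.60, 7.11 and 7.58 in WT 3, 4, 5 and 6. All Nix_KO values fell inside the WT range, with a log2 change of -0.08 ± 0.16 SE (limma adjusted p = 0.723). A second Mdm2 probe set, 1427718_a_at, read 7.26, 7.24, 7.35 and 6.90 in the Nix_KO arrays, against 6.97, 6.74, 7.08 and 6.76 in the WT arrays, in the same order. There 3 of 4 Nix_KO arrays were above all WT arrays, and the log2 change was 0.30 ± 0.16 SE (limma adjusted p = 0.179). Array weights brought this probe set past the threshold (log2 0.42, limma adjusted p = 0.0388), and the highest limma adjusted p of any alternative was 0.656. The changes of the 2 probe sets differed by -0.38 (exact two-sided permutation p = 0.114, adjusted p = 0.943 over 11 pairs of probe sets of one gene), and 0 of the 11 pairs passed, with 0.114 as the smallest p before adjustment. The remaining probe set, 1457929_at, read 2.72 to 3.54 in Nix_KO and 2.64 to 2.86 in WT arrays.

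Ccng1 had 3 tested probe sets and none passed. The brightest, 1420827_a_at, read 10.48, 10.53, 10.25 and 10.10 in Nix_KO 10, 2, 3 and 6, against 10.69, 10.50, 10.22 and 10.76 in WT 3, 4, 5 and 6. WT 3 and WT 6 were the highest arrays and Nix_KO 6 the lowest, with a log2 change of -0.20 ± 0.17 SE (limma adjusted p = 0.397). The 2 others, 1450016_at and 1450017_at, gave log2 changes of -0.10 and -0.02 (limma adjusted p = 0.69 and 0.972). One array, WT 5, read 5.73 for 1450017_at, where the other 7 read 6.41 to 7.13.

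The sestrins restrain growth signalling through mTORC1 and protect against oxidants, and Sesn2 also senses leucine. Sesn1 was measured by 4 probe sets, and none passed. The brightest, 1438931_s_at, read 12.60, 12.31, 12.66 and 11.81 in Nix_KO 10, 2, 3 and 6, against 12.03, 12.26, 12.25 and 12.08 in WT 3, 4, 5 and 6. Nix_KO arrays held both the highest and the lowest value, and the log2 change was 0.19 ± 0.20 SE (limma adjusted p = 0.492). The 3 others, 1433711_s_at, 1454699_at and 1444376_at, changed by 0.11, 0.13 and -0.06 (limma adjusted p = 0.635, 0.614 and 0.845). The suffix _s_at marks probe sets that can match more than one transcript, so those readings need not be Sesn1 alone.

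Sesn2 read 6.17, 6.67, 6.49 and 6.74 in Nix_KO 10, 2, 3 and 6 with probe set 1451599_at, against 5.89, 6.45, 6.75 and 6.25 in WT 3, 4, 5 and 6. The WT arrays spanned all 4 Nix_KO values, and the log2 change was 0.18 ± 0.21 SE (limma adjusted p = 0.544). The dim probe set 1425139_at read 4.07 to 4.71 in Nix_KO and 4.11 to 4.18 in WT arrays.

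Trp53inp1, a stress-induced partner of p53 that also takes part in autophagy, read 10.75, 9.81, 10.58 and 10.13 in Nix_KO 10, 2, 3 and 6 with probe set 1416926_at, against 10.32, 10.56, 10.54 and 10.99 in WT 3, 4, 5 and 6. Nix_KO 2 and Nix_KO 6 were below all WT arrays and the other two within their range, with a log2 change of -0.29 ± 0.24 SE (limma adjusted p = 0.381). Probe set 1416927_at read 5.49 to 6.65 in Nix_KO and 5.42 to 6.85 in WT arrays, with a log2 change of 0.09 ± 0.34 SE (limma adjusted p = 0.852). Perp, a membrane protein of cell junctions that p53 induces in dying cells, read 3.28 to 3.78 in Nix_KO and 3.12 to 3.58 in WT arrays and was not tested. For the members without a call the 95% intervals of the log2 change, before adjustment, reached no further up than 0.85 (Trp53inp1, 1416927_at) and no further down than -1.26 (Cdkn1a). A missing call therefore does not show that a member was unchanged.

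Genes around p53 were read from 4 further lists, with 1 probe set per gene: 46 of 55 listed genes were tested, of which 9 rose, 14 fell and 23 did not pass. That is 50% called, where 38.3% of all 11027 tested genes were called, 14.2% higher and 24.1% lower. These lists were chosen with earlier results of these data known, so the shares are a description only. The median log2 change was -0.19, against -0.15 over all tested genes. Groups did not overlap for 24 of the 46 (52.2%), and for 39.6% of all tested genes. Without the 3 arrays with pancreatic signal 7 of the 46 rose and 5 fell, where 15.3% of all tested genes were called. With arrays centred on their medians, which moved the median of all tested probe sets by 0.12, the split was 13 higher and 12 lower. In that fit 35.8% of all tested genes were called.

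Of 15 tested regulators of p53, 4 rose, 2 fell and 9 did not pass, where 38.3% of all tested genes were called. Hipk2 is among the 9 because its brightest probe set, 1428433_at, did not pass (log2 0.71). Its probe sets 1424864_at (log2 1.69, limma adjusted p = 0.00133) and 1429566_a_at (log2 0.72, limma adjusted p = 0.0334) passed, and its others did not. The checkpoint kinase genes Chek1 and Chek2, whose products phosphorylate p53 after DNA damage, rose 4.05-fold and 2.87-fold. Chek1 averaged 8.20 ± 0.44 in Nix_KO and 6.19 ± 0.59 in WT spleens, and Chek2 8.31 ± 0.39 in Nix_KO and 6.78 ± 0.41 in WT spleens (log2 intensity, SD, n = 4 each, limma adjusted p = 0.00161 and 0.00196). The cell division list rose in 17 of 17 tested genes in the same arrays, and its part in these 2 values was not tested. Ppm1d, a phosphatase that ends the p53 response, rose 2.03-fold, and Usp7, a protease that removes ubiquitin from MDM2 and p53, rose 1.91-fold (limma adjusted p = 0.00233 and 0.00532). Atm, the kinase that senses double-strand breaks, fell 2.63-fold (limma adjusted p = 0.0101), with 7.39 ± 0.77 in Nix_KO and 8.79 ± 0.34 in WT spleens. A second Atm probe set, 1428830_at, changed by -0.47 and did not pass (limma adjusted p = 0.149). Trp53bp1, a scaffold at broken DNA, fell 1.98-fold (limma adjusted p = 0.0482). It did not pass under 12 of 17 alternatives, where the highest limma adjusted p was 0.136, and its 5 probe sets changed by -2.02 to -0.18.

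Of 9 tested p53 targets known for cell death, 1 rose, 2 fell and 6 did not pass, where 38.3% of all tested genes were called. Pidd1, which nucleates a caspase-2 complex, rose 1.63-fold, with 6.77 ± 0.26 in Nix_KO and 6.06 ± 0.12 in WT spleens (log2 intensity, SD, n = 4 each, limma adjusted p = 0.00802). Pmaip1, encoding the BH3-only protein NOXA, fell 2.05-fold and Trp53i11 fell 2.15-fold (limma adjusted p = 0.00457 and 0.00229). Pmaip1 averaged 7.78 ± 0.42 in Nix_KO and 8.82 ± 0.18 in WT spleens. Pidd1 and Pmaip1 lost their calls without the 3 arrays with pancreatic signal (limma adjusted p = 0.0594 and 0.0581).

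Of 16 tested p53 targets of the cell cycle, repair and metabolism, 3 rose, 7 fell and 6 did not pass. Over all tested genes 38.3% were called. The 3 that rose were Ckap2 (5.15-fold), a spindle protein, Gtse1 (2.73-fold), which restrains p53 in G2, and Pcna (2.02-fold), the sliding clamp of DNA replication. These 3 genes are also known to be expressed in dividing cells, whose list rose in 17 of 17 tested genes in the same arrays, and the part of that list here was not tested. Among the 7 that fell were Bcl6 (2.58-fold), a repressor of transcription in germinal centre B cells, Ddb2 (1.59-fold), which recognises ultraviolet damage, and Tigar (1.91-fold), which lowers glycolytic flux. The limma adjusted p was 0.00118, 0.00234 and 0.00589 for the first 3 and 0.00503, 0.00775 and 0.0099 for the last 3. Tigar read near the lower limit of testing, at 5.11 ± 0.38 in Nix_KO and 6.04 ± 0.34 in WT spleens, and a second probe set, 1447934_at, changed by -0.28 and did not pass (limma adjusted p = 0.577). Ddb2 lost its call without the 3 arrays with pancreatic signal (log2 -0.68, limma adjusted p = 0.0739).

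**Figure D4:**
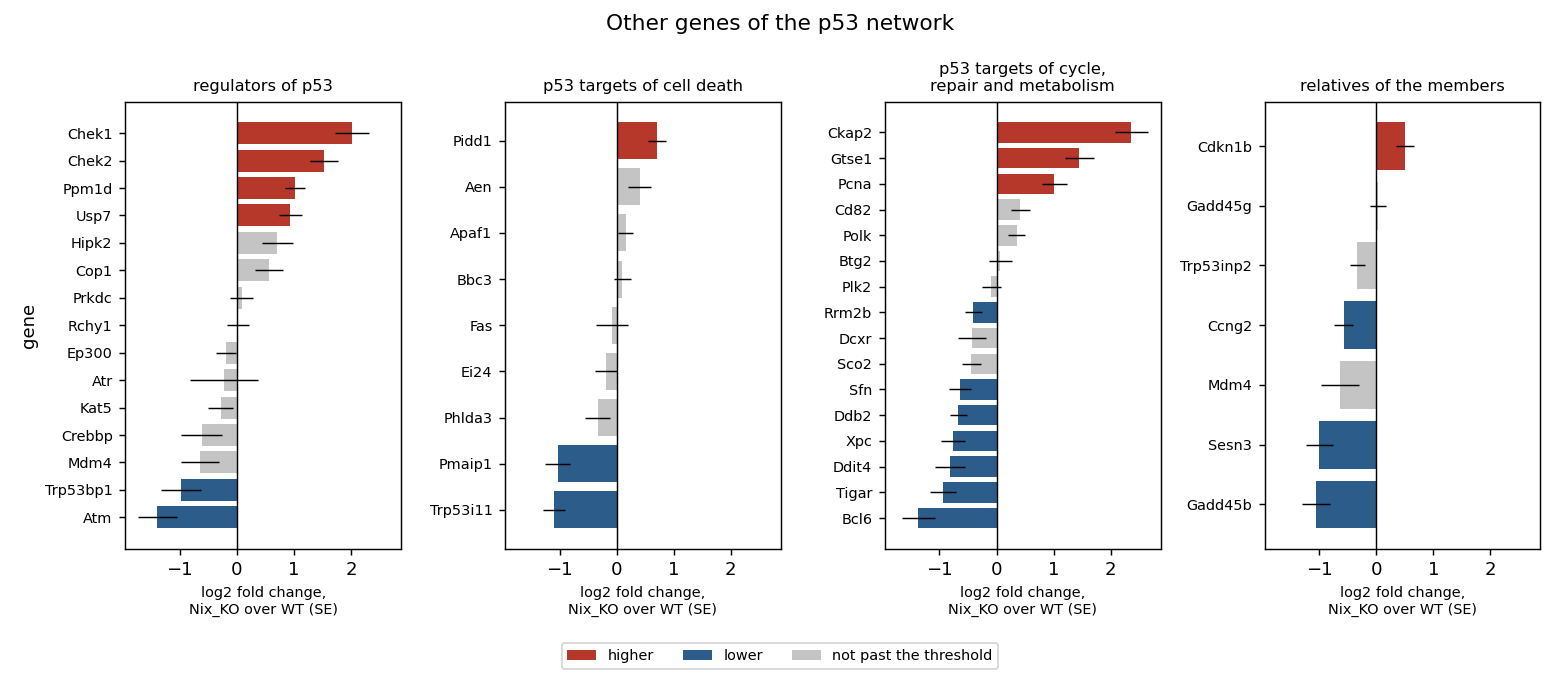
Log2 fold change, Nix_KO over WT (horizontal axis, bars, with SE), of the tested genes (vertical axis) in 4 lists around p53, coloured by whether the adjusted p was under 0.05 and by direction. Calls run both ways in all 4 lists, from 2.37 for Ckap2 to -1.39 for Atm.

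Of 7 tested relatives of the members, 1 rose, 3 fell and 3 did not pass, where 38.3% of all tested genes were called. Gadd45b, another GADD45 protein, averaged 7.92 ± 0.45 in Nix_KO and 8.98 ± 0.33 in WT spleens (SD, n = 4 each) and fell 2.08-fold (limma adjusted p = 0.00771), while Gadd45g changed by 0.03 ± 0.15 SE (limma adjusted p = 0.881). A second Gadd45b probe set, 1450971_at, changed by -0.76 (limma adjusted p = 0.0509). Immediate-early genes, with which Gadd45b is often induced, read a mean log2 intensity of 7.69 to 8.25 in Nix_KO and 8.27 to 8.80 in WT arrays, with 5 of 9 tested genes lower and 1 higher, and their part in the fall was not tested. Sesn3, a sestrin known as a FOXO target, fell 2.00-fold (SE of the log2 change 0.24, limma adjusted p = 0.0089). Sesn3 lost its call without the 3 arrays with pancreatic signal (log2 -1.20, limma adjusted p = 0.0611). Cdkn1b, encoding the p27 inhibitor, rose 1.41-fold (limma adjusted p = 0.0284), with 12.2 ± 0.23 in Nix_KO and 11.7 ± 0.09 in WT spleens (SD, n = 4 each). It did not pass without Nix_KO 3, WT 4, WT 5 or WT 6 (limma adjusted p from 0.0570 to 0.0779), nor without the 3 arrays with pancreatic signal (0.201). Ccng2, the relative of Ccng1, fell 1.48-fold (limma adjusted p = 0.022). It did not pass without WT 4 (0.0621), without WT 6 (0.066) or without the 3 arrays with pancreatic signal (0.0718), and its second probe set, 1448364_at, changed by -0.61 (limma adjusted p = 0.248). Mdm4, the partner of MDM2, changed by -0.64 ± 0.33 SE and did not pass (limma adjusted p = 0.15). Nix_KO 2 read 7.46 for Mdm4, against 8.86 to 9.29 in the other Nix_KO arrays, and without it the change was -0.25 (limma adjusted p = 0.22). Its second probe set, 1419558_at, changed by 0.16 (limma adjusted p = 0.484). Trp53inp2 changed by -0.33 ± 0.13 SE and did not pass (limma adjusted p = 0.062). Cdkn1c, Trp63 and Trp73 had no probe set bright enough to test.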

How the data were processed

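Total RNA was extracted with Trizol, column-purified and labelled with biotin in one cycle, per the labels' protocols. The authors deposited 1 linear intensity per probe set and array, made with GCRMA per the submitters' processing notes. Its version, the step to a linear scale and any later scaling are not given in the sources used here. GCRMA shrinks low signals together, so changes of dim probe sets depend on it. Intensities were log2-transformed without an offset. After 64 control probe sets were left out, 22347 of 45037 were tested, those with log2 intensity of at least 5 in at least 4 of 8 arrays. Genotypes were compared with limma 3.58.1 (lmFit and eBayes) in R 4.3.3. P-values were two-sided and adjusted by Benjamini-Hochberg across the tested probe sets. Where 1 probe set stands for a gene (the brightest tested single-gene one), they were adjusted across all 11027 genes, and the threshold was 0.05. Gene symbols came from the platform annotation, which gave 34945 probe sets 1 gene, 932 several and 9160 none. Probe sets of one member were compared with each other by exact permutation over arrays. The fit was also run on simulated data with independent noise for each probe set. Those data hold no changes shared between genes, so that run checks the code and not the calls. Members and lists were chosen with earlier results of these data known. Named were all members, their relatives, up to 6 called genes per list by adjusted p, and the 3 genes nearest to Gadd45a and to Cdkn1a. Hipk2 was named for its other probe sets. Each array is a different animal according to its label, and the number of arrays, 4 per genotype, limits the precision. Figures were drawn with matplotlib 3.10.9. Alternatives were no filter, a filter at 6, quantile normalization, median centring, array weights, a trended robust variance, the mean of a gene's probe sets, each array left out, and a block for the title numbers. Leaving out the 3 arrays with pancreatic signal was added after seeing the data.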

Additional observations from a re-analysis of the deposited data

Results flagged for a closer look

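For the members, their tested relatives and the called genes named above, 82 groups of 4 arrays were examined. Of these, 2 held an array far from the other 3, and chance alone marks about 1 in 20 groups. Trp53i11 read 7.35 in Nix_KO 2, where the other Nix_KO arrays read 8.05 to 8.13. Ddb2 read 7.58 in Nix_KO 10, where the other Nix_KO arrays read 7.17 to 7.20.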

How the results depend on the processing

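Gadd45a rose under all 16 alternatives run for its probe set and passed the test in all but the fit with the title numbers as a replicate block. Quantile normalization turned the sign of 3 member changes that had not passed, to 0.041 for Mdm2 1423605_a_at, 0.043 for Sesn1 1444376_at and 0.11 for Ccng1 1450017_at. Median centring turned 4, to 0.042 for Mdm2 1423605_a_at, 0.066 for Sesn1 1444376_at, 0.022 for Ccng1 1450016_at and 0.11 for Ccng1 1450017_at. With the replicate block, 0 member probe sets, 1 member gene (Gadd45a) and 11 other p53 network genes were called. In that fit 0.00447% of all tested probe sets and 13.1% of genes passed, and Trp53inp1 1416927_at turned to -0.52. The block pairs numbers 3 and 6, the 2 that both genotypes share, and nothing in the labels says that the numbers pair animals. Deviations of same-numbered arrays correlated at 0.25 and 0.15. Those of differently numbered arrays ran from -0.49 (Nix_KO 10 and WT 3) to 0.38 (Nix_KO 10 and WT 6), so the same-numbered values lay inside that range. Without the 3 arrays with pancreatic signal, 1 member probe set, 1 member gene and 12 network genes were called. There 3.09% of all tested probe sets and 15.3% of all tested genes passed. Changes that had not passed then turned to -0.13 for Trp53inp1 1416927_at, -0.052 for Sesn1 1433711_s_at, -0.11 for Sesn1 1454699_at and -0.0060 for Gadd45g. With each array left out in turn, the calls ranged from 1 to 2 for member probe sets, 1 to 3 for member genes and 17 to 23 for network genes. In the same fits 17.9% to 31.3% of all tested probe sets and 27.6% to 38.9% of all tested genes were called. The exact permutation test of Gadd45a against the 7 other members is not used here, because Gadd45a was singled out for its change. With 4 arrays against 3 its exact p also takes few values. The log2 change ranged over -0.10 to 0.39 for Trp53inp1 1416927_at, -0.18 to 0.039 for Sesn1 1444376_at, -0.31 to 0.16 for Ccng1 1450017_at and -0.034 to 0.11 for Gadd45g. The cause of these changes was not tested. Signals near the background limit what can be seen for Perp and the 3 other untested member probe sets.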
